A study of Drosophila melanogaster with 40 samples.

Results

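The regions described here are the stretches of the Drosophila melanogaster X chromosome where at least 1 of 5 chromatin proteins gave a ChIP-seq peak in early embryos. Peaks of the 14 deposited lists that overlapped by at least 1 bp were merged, and the merged regions on X were kept. This gave 2536 regions of 18717 over all chromosomes, or 13.5%, and they covered 2.86 Mb of the 23.5 Mb of X. All embryos were 0.5 to 1.5 h old. From wild-type embryos of the w1118 strain, antibodies precipitated dPCIF1, related to the mammalian PCIF1 that methylates mRNA caps, the H3.3 chaperone HIRA, the serine 5 phosphorylated form of RNA polymerase II (Pol II-Ser5P), and the pioneer factors GAF and Zelda. GAF and Zelda were also precipitated from M-Z+ dPCIF1 mutant embryos, whose mothers lacked dPCIF1 while the zygotic copy was present. Each of the 7 groups had 2 replicates from pooled embryos, and the labels gave neither the sex of the embryos nor the mutant allele. A male embryo has a single X, so a lower dose of X in the chromatin cannot be told apart here from fewer bound sites. A list gave only the position of each peak, so the height of the peaks and the depth of the libraries are unknown. The lists held between 3547 and 11661 peaks over the whole genome.

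GAF, also called Trl, is a zinc finger protein that binds GA-rich DNA and opens chromatin at promoters and at other regulatory elements. Zelda binds CAGGTA and related sequences, known as TAGteam sites, and acts at the first zygotic genes, among them X-linked genes that report the number of X chromosomes to Sxl. In older embryos the male X is also the target of dosage compensation, in which the roX RNAs and the acetyltransferase encoded by mof take part.

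Sequences of bound X regions are shown for GAF and for Zelda, because the comparisons below turn on the GA-rich and CAGGTA sequences that these windows hold. For each factor, the 3 X regions with the most motif matches were taken from those called in both replicates of both genotypes. Matches of GAGAG for GAF, or of CAGGTA for Zelda, were counted on either strand within 100 bp of the midpoint. Matches that overlapped one already counted on that strand were left out of the count, whereas the capitals mark them too. The window near sc is joined by a window at sisA that was chosen after the values were seen, as the 201 bp with the most matches in the region called in the mutant lists. All are the + strand of dm6, and the capitals mark GAGAG or CTCTC in the GAF windows and CAGGTA or TACCTG in the Zelda windows.
GAF near sog, chrX:15633489-15633689: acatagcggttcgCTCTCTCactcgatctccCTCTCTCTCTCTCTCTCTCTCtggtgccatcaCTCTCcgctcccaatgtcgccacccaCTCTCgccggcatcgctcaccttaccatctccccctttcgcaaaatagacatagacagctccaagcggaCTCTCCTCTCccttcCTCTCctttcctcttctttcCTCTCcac
GAF in Rala, chrX:3718755-3718955: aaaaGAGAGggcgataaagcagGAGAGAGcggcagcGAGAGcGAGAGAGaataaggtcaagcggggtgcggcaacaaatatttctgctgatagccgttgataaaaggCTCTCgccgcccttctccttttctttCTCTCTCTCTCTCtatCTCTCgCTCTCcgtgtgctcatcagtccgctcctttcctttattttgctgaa
GAF in dlg1, chrX:11372789-11372989: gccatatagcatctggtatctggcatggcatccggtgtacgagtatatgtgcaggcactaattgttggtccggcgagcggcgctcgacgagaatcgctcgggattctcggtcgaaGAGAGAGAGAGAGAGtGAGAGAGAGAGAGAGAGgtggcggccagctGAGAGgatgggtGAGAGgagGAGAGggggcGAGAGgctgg
Zelda near sc, chrX:395868-396068: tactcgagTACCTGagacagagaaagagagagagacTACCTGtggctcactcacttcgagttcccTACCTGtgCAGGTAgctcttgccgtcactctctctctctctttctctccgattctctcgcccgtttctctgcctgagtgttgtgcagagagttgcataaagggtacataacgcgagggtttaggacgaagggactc
Zelda in spri, chrX:10493938-10494138: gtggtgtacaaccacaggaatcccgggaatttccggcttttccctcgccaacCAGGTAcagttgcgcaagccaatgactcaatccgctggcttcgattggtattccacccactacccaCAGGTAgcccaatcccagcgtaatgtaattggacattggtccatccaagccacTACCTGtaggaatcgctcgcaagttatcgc
Zelda near CG15599, chrX:15684565-15684765: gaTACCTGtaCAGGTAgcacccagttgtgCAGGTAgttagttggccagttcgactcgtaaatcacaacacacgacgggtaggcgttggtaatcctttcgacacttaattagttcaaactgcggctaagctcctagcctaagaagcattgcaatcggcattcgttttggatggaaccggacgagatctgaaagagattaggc
Zelda at sisA, chrX:11322393-11322593: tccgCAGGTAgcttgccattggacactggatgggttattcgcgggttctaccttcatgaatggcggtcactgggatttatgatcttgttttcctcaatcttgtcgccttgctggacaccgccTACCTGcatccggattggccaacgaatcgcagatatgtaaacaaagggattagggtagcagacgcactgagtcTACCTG
The window with the most GAGAG matches, 10, lay in a GAF region of 657 bp upstream of sog, which encodes an inhibitor of BMP signalling. The windows in introns of Rala, a small GTPase gene, and of dlg1, which encodes a scaffold protein of cell junctions, held 9 matches each. The window with the most CAGGTA matches, 4, lay in a Zelda region of 695 bp whose midpoint was 92 bp from the TSS of sc, a proneural gene that also counts X chromosomes. The windows in an intron of spri and 4192 bp from the TSS of CG15599 held 3 matches each. The sisA window held 3 of the 5 matches of its region.

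The question whether X was bound as densely as the autosomes was examined by comparing each library on X with the same library on 2L, 3L and 3R. X carried fewer peaks per Mb than these arms for every protein but GAF. For dPCIF1, the replicates had 19.5 and 16.5 peaks per Mb on X and 32.7 and 29.5 on the arms. For Zelda in wild-type embryos, the values were 22.1 and 17.7 on X and 38.7 and 31.2 on the arms. Every X value of these groups lay below every value of the arms. For Pol II-Ser5P, 56.1 and 53.6 peaks per Mb were found on X and 89.2 and 85.3 on the arms. HIRA had 27.4 and 20.0 peaks per Mb on X and 34.6 and 27.02 on the arms, and here the ranges of X and the arms overlapped between replicates, although each replicate was lower on X. GAF in wild-type embryos had 42.3 and 46.5 peaks per Mb on X and 44.5 and 46.5 on the arms, so that the values of X and the arms overlapped.

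**Figure D1:**
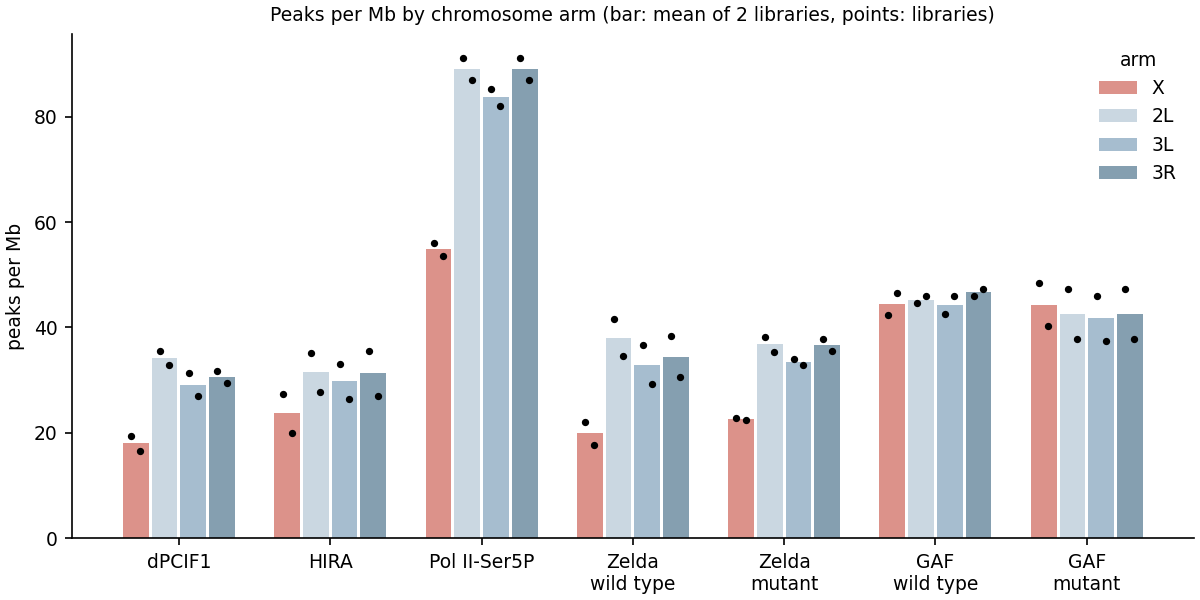
Peaks per Mb (vertical axis) on X, 2L, 3L and 3R for the 7 groups, with bars for the mean of 2 libraries and points for the libraries. The X bar is the lowest of its group for dPCIF1, HIRA, Pol II-Ser5P and Zelda, and for GAF the X libraries, between 40.2 and 48.5 peaks per Mb, overlap those of the arms.

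As a ratio of X to the arms, peak density was 0.577 ± 0.0254 (SD, n = 2) for dPCIF1, 0.569 ± 0.00293 for wild-type Zelda, 0.629 ± 0.000167 for Pol II-Ser5P and 0.766 ± 0.0363 for HIRA. In the mutant, Zelda had a ratio of 0.638 ± 0.0175. GAF had ratios of 0.976 ± 0.0351 in wild-type and 1.05 ± 0.0230 in mutant embryos. The ratios of the 4 GAF libraries, from 0.951 to 1.07, did not overlap those of the other 10 libraries. The ratio differed between the groups by more than between replicates (exact permutation test over the 135135 ways to pair 14 libraries, adjusted p = 0.000111, over 5 measures). Over the 7 groups the mean log2 ratio was -0.47 ± 0.36 (SD), below 0 in 6 of 7 groups, and it did not pass the threshold after adjustment (two-sided exact sign-flip permutation test, p = 0.0469, adjusted p = 0.0781, smallest possible p 0.0156). The groups are different proteins, and GAF and Zelda each enter with both genotypes.

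The density of promoters on X lay within the range of the arms. X had 3907 annotated promoters, defined as 1 kb to either side of each TSS, or 166 per Mb, against 195 on 2L, 162 on 3L and 171 on 3R. Per promoter, the ratio of X to the arms was 0.608 ± 0.0267 for dPCIF1, 0.599 ± 0.00309 for wild-type Zelda, 0.662 ± 0.000175 for Pol II-Ser5P and 0.806 ± 0.0382 for HIRA (SD, n = 2). GAF had 1.03 ± 0.0370 in wild-type and 1.11 ± 0.0242 in mutant embryos. The log2 ratio per promoter differs from that per Mb by the same amount in every library. The test between groups is therefore the same test as above (adjusted p = 0.000111, exact permutation test). The mean over the 7 groups, -0.39 ± 0.36, did not pass (adjusted p = 0.0781, exact sign-flip permutation test).

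**Figure D2:**
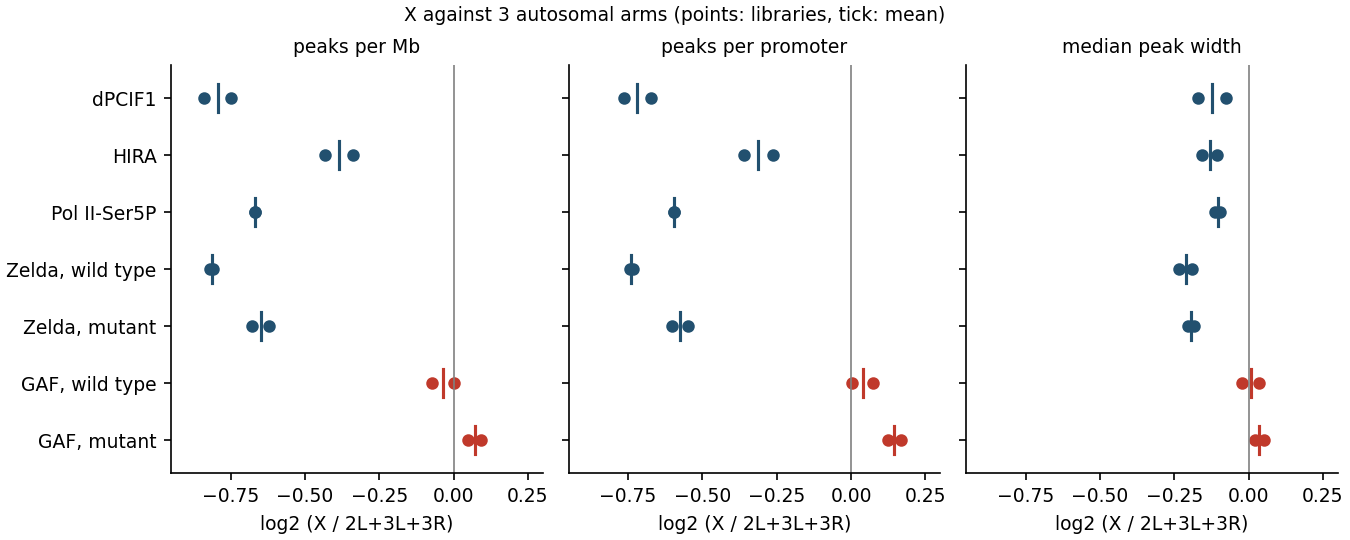
Log2 ratio of X to 2L, 3L and 3R together (horizontal axes) for peaks per Mb, peaks per promoter and median peak width, with a point for each library and a tick for the mean of each group. The 4 GAF points in the left panel lie between -0.07 and 0.09, to the right of all other libraries.

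The share of X promoters with a peak was lower than on the arms for the same proteins. Pol II-Ser5P was at 43.8% and 43.2% of X promoters and at 53.0% of the arms' promoters in both replicates, a difference of -9.51 ± 0.419 percentage points (SD, n = 2). dPCIF1 was at 16.3% and 13.3% of X promoters and at 23.9% and 21.3% on the arms. Wild-type Zelda was at 8.57% and 8.16% against 13.6% and 12.4%. GAF was at 26.9% and 27.5% of X promoters against 25.7% and 26.4%, so that here the X values were the higher ones. These differences varied between groups beyond the replicates (adjusted p = 0.000111, exact permutation test), with a mean over groups of -3.84 ± 4.21 points (adjusted p = 0.0781, exact sign-flip permutation test). Without the 5 Mb next to the centromere of every arm, that mean was smaller, at -1.78 points (adjusted p = 0.410, exact sign-flip permutation test).

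Where the peaks lay relative to genes differed by protein and in both directions. The promoter share of the peaks was 66.5% and 67.1% on X for Pol II-Ser5P and 57.6% and 58.8% on the arms. For HIRA it was 52.6% and 57.7% on X and 58.8% and 63.2% on the arms. dPCIF1 had 77.9% in both X lists and 72.9% and 73.5% on the arms. The difference between X and arms varied between groups (adjusted p = 0.000731, exact permutation test), and its mean over groups was -0.06 ± 5.09 points (adjusted p = 0.984, exact sign-flip permutation test). For Pol II-Ser5P, distal peaks had 18.8 and 17.7 per Mb on X against 37.8 and 35.2 on the arms, a larger gap than for its promoter peaks, with 37.3 and 36.0 against 51.3 and 50.1. GAF had 18.0 and 21.4 distal peaks per Mb on X and 18.3 and 19.1 on the arms.

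Consensus regions, in which peaks of both replicates overlapped by at least 20% of both lengths, were used to place binding within genes. On X there were 319 such regions for dPCIF1, 364 for HIRA, 1021 for Pol II-Ser5P, 869 for GAF and 312 for Zelda in wild-type embryos, and 864 for GAF and 403 for Zelda in the mutant. The midpoints of wild-type GAF regions lay in introns in 52.4% of cases on X and in 45.1% on the arms, and between genes in 21.2% and 34.5%. Wild-type Zelda showed a like split, with 54.5% in introns on X and 41.7% on the arms. For dPCIF1 the intron shares were 34.5% and 30.4%, for HIRA 34.6% and 34.5%, and for Pol II-Ser5P 28.9% and 34.0%. The intron share of X and of the arms themselves was not measured. Placement can therefore not be told apart here from the make-up of the chromosomes. Midpoints of X dPCIF1 regions lay in 5′ UTRs in 34.8% of cases, and 113 bp was their median distance to a TSS. The median distance was 786 bp for wild-type GAF and 1908.5 bp for wild-type Zelda on X.

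In the lists of single replicates, X peaks were also narrower than those of the arms, except for GAF. The median width on X was 434 and 427 bp for dPCIF1, 447 and 457 bp for wild-type Zelda, and 723 and 757 bp for Pol II-Ser5P. On the arms the medians were 488 and 450 bp, 510 and 537 bp, and 772 and 819 bp. Wild-type GAF had 689.5 and 626 bp on X and 673 and 635 bp on the arms. The log2 ratios of width differed between groups (adjusted p = 0.00243, exact permutation test), with a mean over groups of -0.10 ± 0.09 (adjusted p = 0.0781, exact sign-flip permutation test). In consensus regions the median was lower on X for GAF too, 857 against 900.5 bp in wild-type and 887.5 against 914 bp in mutant embryos. The mean log2 ratio over groups was then -0.22 (p = 0.0156, adjusted p = 0.0781, exact sign-flip permutation test).

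The sequence of X was then compared with that of the arms. Runs of GA, here 4 GA units in a row on either strand, were more frequent on X. They occurred in 1.54% of all consecutive 201 bp windows of X and in 1.05% of those of the arms. The shorter GAGAG, which every such run contains, was in 21.5% of X windows and 21.4% of the arms' windows, and CAGGTA in 4.18% and 4.59%. In windows of the same size at GAF regions of wild-type embryos, the GA run was in 18.1% on X and 12.9% on the arms, and GAGAG in 54.3% and 52.2%. In windows at Zelda regions, CAGGTA was in 18.6% on X and 14.8% on the arms. These shares are descriptions, since windows of 1 chromosome are not replicates.

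Windows with the GA run were occupied by GAF about as often on X as on the arms, with 32.7% of 1793 windows on X and 34.2% of 4374 on the arms covered by a wild-type GAF region. The same windows were covered by dPCIF1 in 5.86% of cases on X and 10.95% on the arms, by Pol II-Ser5P in 14.2% and 21.4%, and by HIRA in 4.80% and 9.69%. Windows with CAGGTA were covered by wild-type Zelda in 3.62% of cases on X and 6.25% on the arms. Windows without the GA run were also covered less often on X by dPCIF1, in 1.13% against 2.26%. For Pol II-Ser5P these shares were 6.64% and 12.8%, for HIRA 1.40% and 2.02%, and for wild-type GAF 5.91% and 5.82%. Windows without CAGGTA were covered by wild-type Zelda in 1.17% of cases on X and 2.57% on the arms. For dPCIF1, Pol II-Ser5P, HIRA and Zelda, the lower share on X was thus not particular to windows with the motif. It was not tested.

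Peaks that held a GA run were then counted. Of the wild-type GAF peaks, 41.7% and 39.6% held a GA run on X and 29.1% and 28.4% on the arms. With these peaks left out, a setting added once the values were known, the ratio of X to the arms was 0.783 and 0.844 for wild-type and 0.859 and 0.879 for mutant GAF, in place of 0.951, 1.00, 1.03 and 1.07. The ratios of dPCIF1 became 0.559 and 0.507, and those of HIRA 0.785 and 0.741. The lowest GAF library then lay below the highest HIRA library. A longer peak is more likely to hold a run, and the part of peak width in this change was not tested. The groups still differed beyond their replicates (adjusted p = 0.000370, exact permutation test).

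**Figure D3:**
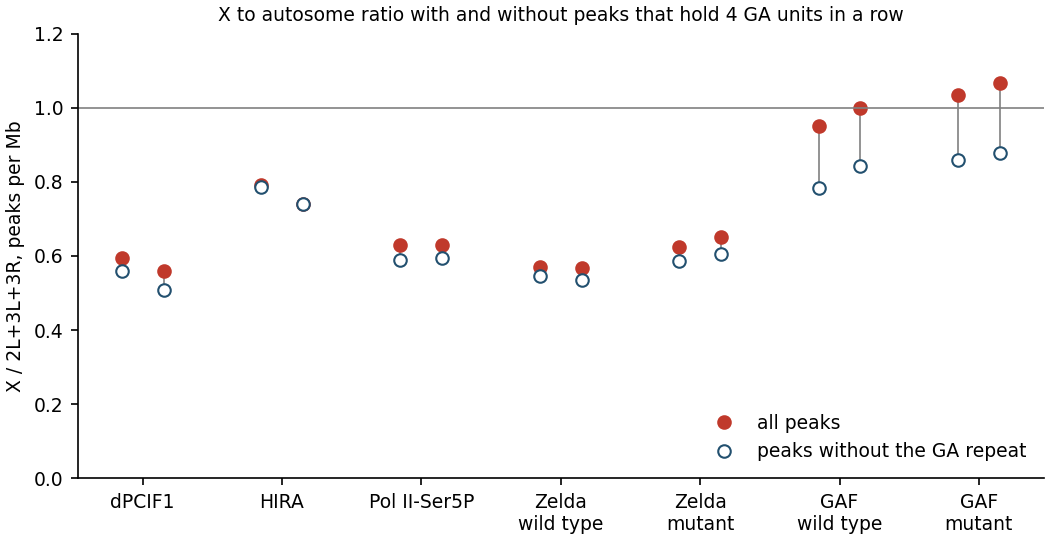
Ratio of X to 2L, 3L and 3R in peaks per Mb (vertical axis) for each of the 14 libraries, for all peaks (filled) and for peaks without 4 GA units in a row (open). Open points of GAF lie between 0.783 and 0.879, below 1, whereas its filled points lie between 0.951 and 1.07.

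How many proteins shared an X region was counted next. Of the 2536 regions, 636 (25.1%) held a peak of 1 list only and 776 were in both replicates of no group. Wild-type GAF had peaks in both replicates at 823 X regions, or 32.5%, against 24.5% of merged regions over all chromosomes, and mutant GAF at 824, or 32.5%, against 22.5%. Pol II-Ser5P was called in both replicates at 982 regions, 38.7% against 45.1% of all regions. dPCIF1 was at 10.8% against 11.4%, HIRA at 13.2% against 11.5%, wild-type Zelda at 11.04% against 12.2% and mutant Zelda at 13.8% against 14.6%. These shares are not densities, since merged regions were sparser on X, with 108 per Mb against 142, 139 and 140 on 2L, 3L and 3R. Consensus regions per Mb on X and the arms were 15.5 and 19.6 for HIRA, 13.6 and 20.4 for dPCIF1, and 36.9 and 36.2 for wild-type GAF. Of the 823 wild-type GAF regions, 403 (49.0%) were in both replicates of no other wild-type group, compared with 40.9% on the arms. The other proteins had more peaks per Mb on the arms. Regions with a peak in all 14 lists numbered 67 on X, or 2.85 per Mb, and 5.20 per Mb on the arms. At 58 of the 67 (86.6%) there was a promoter, close to the 89.7% of such regions on the arms. Their median width was 4198 bp, against 4697 bp on the arms.

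The 5 widest of these shared regions lay at 4 genes. The widest, chrX:2290490-2308768 with its midpoint in an intron of Raf, which encodes a kinase of the MAP kinase pathway, measured 18279 bp. The GAF lists covered 17825 to 18278 bp of it, with 1 peak each. Zelda covered 3829 and 3411 bp of it in wild-type lists and 8557 and 7532 bp in mutant lists. The mutant Zelda lists also covered more of X as a whole, 1.56% and 1.53% against 1.22% and 1.04%. Their median peak widths on X were 504 and 502 bp, against 447 and 457 bp in wild-type lists. The difference at Raf is therefore not particular to this region. Pol II-Ser5P covered 7083 and 6751 bp, and dPCIF1 1384 and 933 bp. The other 4 were a pair at Tlk, which encodes a kinase acting in chromatin assembly, of 16208 and 11891 bp, a region of 11971 bp at ogre, an innexin gene, and one of 10997 bp at Dsp1, which encodes an HMG-box protein.

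GAF gave the widest regions of all groups on X. Its widest consensus region lay in an intron of Mnt, which encodes a bHLH partner of Max, and measured 26591 bp in wild-type and 26746 bp in mutant embryos. The 4 GAF lists covered 26307 to 26735 bp there. No Zelda list had a peak there, and of the Pol II-Ser5P lists only replicate 2 had one, of 432 bp. dPCIF1 covered 1942 and 980 bp of it. The widest dPCIF1 region, of 4147 bp, lay at Trf2 and lawc, where Trf2 encodes a TBP-related factor of the core promoter machinery, and the next, of 2242 bp, at Sxl. The widest Zelda regions were at sdt, a cell polarity gene, with 2891 bp, and in an intron of nAChRalpha3 with 2826 bp. In the mutant, the widest Zelda region was in an intron of zld, the gene of Zelda itself. There the mutant lists covered 4195 and 4171 bp and the wild-type lists 3540 and 3323 bp. The wider Zelda peaks of the mutant lists over all of X, given above, apply here too.

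Binding varied along X. In bins of 1 Mb, wild-type GAF had between 9 and 56 consensus regions in the whole bins, and Pol II-Ser5P between 7 and 84. The end of X next to the centromere, its last 0.542 Mb, stood apart for HIRA. There it had 55 of its 364 X consensus regions (15.1%), with 70 and 61 peaks in its replicates. A stretch of equal length at the same end held 30 HIRA regions on 3R, 1 on 2L and 0 on 3L. Of the other proteins, wild-type Zelda had 14 regions in that end of X, and dPCIF1 1, Pol II-Ser5P 5 and wild-type GAF 2. All 17 annotated rRNA genes of X lay in this end, and 11 of the 55 HIRA regions overlapped one. Such genes occur in near-identical copies and the authors removed reads without a unique position, so counts there are uncertain. Without the 5 Mb next to the centromere of every arm, the HIRA ratio of X to the arms was 0.741 and 0.703 in place of 0.792 and 0.740, and the difference in its promoter share was -1.88 and -2.01 points in place of -6.19 and -5.47.

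Among X genes, CG32816 had the most merged regions in its body and 1 kb upstream, 33 over 154151 bp. The proneural genes ac, sc, l(1)sc and ase of the achaete-scute complex lie within its span. It was followed by lncRNA:CR32773 with 31, lncRNA:CR44357 with 29, and kirre, which encodes an adhesion protein of muscle founder cells, and lncRNA:CR44999 with 23 each. These are long genes, and per length CG32816 had 2.13 regions per 10 kb, lncRNA:CR44999 1.53, lncRNA:CR32773 1.38, lncRNA:CR44357 1.21 and kirre 0.582, against 1.08 over the whole of X, so that kirre lay below the density of X. The longest stretches of X without any region measured 233879, 207072 and 196881 bp. The longest, chrX:21072261-21306139, held 31 promoters, so that it was not empty of genes.

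Named groups of X-linked genes were then read out by the number of replicates with a promoter peak. The lists were chosen with earlier results of these data known, and their counts stand beside the share of all 2813 X genes called in both replicates, which was 11.8% for dPCIF1, 10.7% for HIRA, 39.99% for Pol II-Ser5P, 22.0% for wild-type GAF, 6.22% for wild-type Zelda, 20.9% for mutant GAF and 7.22% for mutant Zelda. Of the 5 genes of sex determination, all had Zelda in both replicates of both genotypes. The signal element sisA, which encodes a bZIP activator of Sxl, had Zelda peaks of 975 and 1036 bp in wild-type and 1074 and 1053 bp in mutant lists, and no peak in the 10 other lists. The other X signal genes, sc, run and upd1, had GAF and Pol II-Ser5P in every list. Sxl itself, the switch gene of female development, had a promoter peak in all 14 lists, with GAF peaks of 3268 to 3486 bp and Zelda peaks of 1505 and 1090 bp in wild-type and 1530 and 2082 bp in mutant embryos.

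Of the dosage compensation genes, lncRNA:roX1 had a peak in all 14 lists, of 5563 and 6254 bp for Pol II-Ser5P and 1967 and 1809 bp for HIRA. Its GAF peaks measured 1278 and 1378 bp in wild-type and 2027 and 1886 bp in mutant embryos. The second RNA, lncRNA:roX2, had Pol II-Ser5P peaks of 2344 and 2476 bp and HIRA peaks of 335 and 338 bp, 1 dPCIF1 peak, and neither GAF nor Zelda. mof had Pol II-Ser5P alone.

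Of 9 patterning transcription factors, 8 had Pol II-Ser5P, 8 GAF and 7 Zelda in both wild-type replicates, and 2 had HIRA. Only l(1)sc had all 7 groups in both replicates. gt, a gap gene, had 2 of 2 replicates for all groups but HIRA, which had 0. exd, a cofactor of Hox proteins with a maternal supply, had Pol II-Ser5P peaks of 3721 and 3373 bp, 1 dPCIF1 peak and no GAF or Zelda. At ct, a homeobox gene, the GAF peaks measured 1280 and 1240 bp in wild-type and 2704 and 6503 bp in mutant embryos. Mutant GAF peaks were the wider ones at other listed genes too, such as oc and arm, and the narrower ones at sog. These differences in width at single genes were not tested.

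Of the 10 signalling genes, 7 had Pol II-Ser5P, 7 GAF, 6 dPCIF1, 3 wild-type Zelda and 2 HIRA in both replicates. tsg, which encodes a BMP modulator, was bound at its promoter by Zelda alone, with peaks of 600 and 624 bp in wild-type and 532 and 447 bp in mutant embryos. Its partner sog had wild-type GAF peaks of 642 and 579 bp and dPCIF1 peaks of 466 and 476 bp, and no wild-type Zelda peak at its promoter. arm, the beta-catenin gene, had peaks in all 14 lists, and N, which encodes the Notch receptor, had GAF peaks of 9339 and 9993 bp in wild-type and 9958 and 9622 bp in mutant embryos. upd3 had no promoter peak in any list. nullo, a zygotic gene of cellularization, had Zelda peaks only, as did sisA and tsg among the 62 genes in both genotypes.

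Of 6 genes of chromatin and transcription, fs(1)h, which encodes the BET protein of flies, and zld had peaks in all 14 lists. His3.3B, which encodes the histone variant placed by HIRA, had HIRA peaks of 1190 and 1141 bp, dPCIF1 peaks of 301 and 325 bp and Pol II-Ser5P peaks of 5245 and 5408 bp, with no Zelda. The promoter of Hira had no peak in any list. All 14 ribosomal protein genes had Pol II-Ser5P in both replicates and none had Zelda, with 4 for dPCIF1, 4 for HIRA and 5 for wild-type GAF. RpS14a and RpS14b are near-identical neighbours whose counts are uncertain, and RpL7A shares its GAF and Pol II-Ser5P peaks with dx. Of 12 genes used in other tissues or stages, 10 had no promoter peak in any list (83.3%), beside 1288 of all 2813 X genes (45.8%). The exceptions were Yp3, a yolk protein gene, with Pol II-Ser5P, and the pigment gene y, with Zelda peaks of 308 and 617 bp in wild-type lists only. Among the 10 is w, of which the w1118 strain carries a mutant allele, so that its empty promoter is uncertain.

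**Figure D4:**
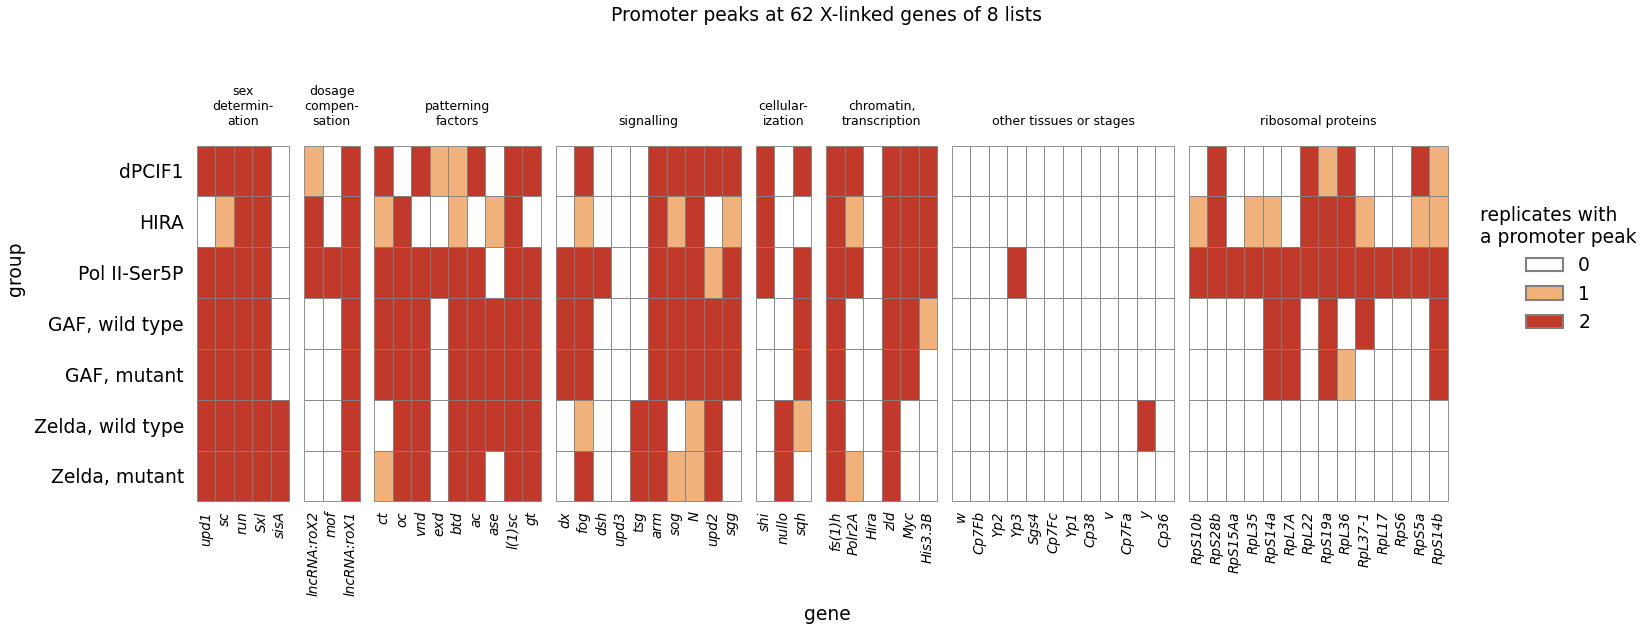
Number of replicates (0, 1 or 2) with a peak within 1 kb of a TSS for 62 X-linked genes (horizontal axis) in the 7 groups (vertical axis). Ribosomal protein genes are filled for Pol II-Ser5P in all 14 columns and empty for Zelda, and sisA, tsg and nullo are filled for Zelda alone.

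To compare the genotypes, peaks of GAF and Zelda on X were counted in wild-type and M-Z+ dPCIF1 mutant embryos. GAF had 996 and 1095 X peaks in wild-type and 1141 and 947 in mutant embryos, a log2 difference of -0.01 (exact permutation test, two-sided p = 1.00). Zelda had 520 and 417 in wild-type and 539 and 529 in mutant embryos, a log2 difference of 0.20 (exact permutation test, p = 0.333, the smallest that 2 against 2 allow, so that no comparison of this size can pass 0.05). The Zelda difference was 0.04 without wild-type replicate 2, 0.36 without wild-type replicate 1 and 0.40 among peaks of at least 500 bp. The GAF libraries of the genotypes overlapped and those of Zelda did not. The same comparison was made relative to the arms. The X to arms ratio of peaks per Mb was 0.951 and 1.00 in wild-type and 1.03 and 1.07 in mutant embryos for GAF, a log2 difference of 0.11 (exact permutation test, p = 0.333). For Zelda it was 0.571 and 0.567 in wild-type and 0.625 and 0.650 in mutant embryos, a log2 difference of 0.16 (exact permutation test, p = 0.333). In both comparisons the genotypes did not overlap, and neither could pass with 2 libraries against 2.

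Single regions were then followed through the 4 lists of each factor. A region was gained when both mutant lists and neither wild-type list had a peak, lost in the reverse case, and kept when all 4 had one. For GAF, 67 of 1320 X regions were gained, or 5.08%, against 4.64% of GAF regions over all chromosomes. Lost GAF regions numbered 55 on X, or 4.17%, against 7.71% over all chromosomes, and the arms had 8.15%, 8.08% and 8.83% lost. Kept GAF regions numbered 711 on X, 53.9% against 45.6% on the arms. For Zelda, 71 of 817 X regions were gained, 8.69% against 7.45%, and 35 were lost, 4.28% against 3.67%. Kept Zelda regions numbered 249 on X, 30.5% against 30.3% on the arms. The share of gained and lost regions between chromosomes was not tested, because regions of 1 library are not replicates. The counts of lost regions depended on peak width, with 30 for GAF and 7 for Zelda among peaks of at least 500 bp.

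**Figure D5:**
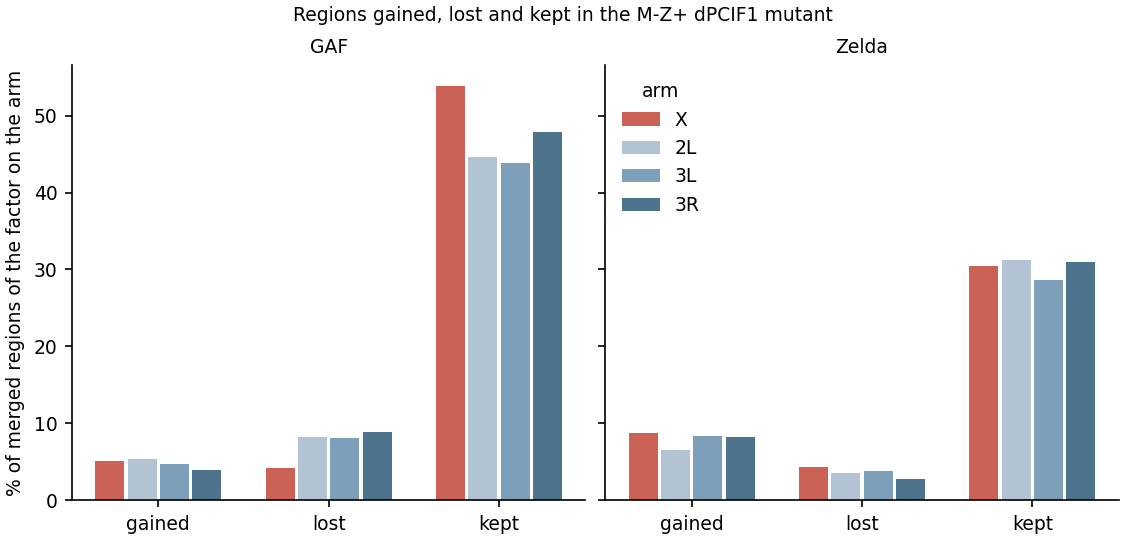
Share of the merged GAF regions (left) and Zelda regions (right) of X, 2L, 3L and 3R that were gained, lost or kept in the mutant, in percent of the merged regions on the arm (vertical axis). For GAF, 4.17% were lost on X and 8.08% to 8.83% on the arms, and 53.9% were kept on X.

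Gained GAF regions on X were compared with those kept. Their median width was 446 bp and 19 of 67 (28.4%) overlapped a promoter, whereas 438 of 711 kept regions (61.6%) did, with a median of 1208 bp. The arms were alike, with medians of 456 and 1292 bp and promoter shares of 25.3% and 68.6%. A kept region merges peaks of all 4 lists and a gained one only those of the mutant lists, so the widths are not directly comparable. GAGAG was within 100 bp of the midpoint in 40 of the 67 gained (59.7%), 31 of the 55 lost (56.4%) and 375 of the 711 kept regions (52.7%). The shares on the arms were 55.6%, 64.9% and 48.7%. dPCIF1 consensus regions overlapped 3 of the gained, 4 of the lost and 192 of the kept X regions. The 3 widest gained regions lay at Tis11, which encodes an mRNA decay factor, at dpr18 and at CG3097. Each had no GAF peak in wild-type lists, and at Tis11 the mutant lists covered 1012 and 811 bp. No list of another protein had a peak in these 3 regions. The widest lost region, of 1712 bp in an intron of gce, a juvenile hormone receptor gene, had 1705 and 1643 bp in the wild-type lists and none in the mutant lists. The others were at Neto and mnb, where mnb encodes a DYRK kinase.

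The gained Zelda regions on X were likewise set beside those lost and kept. Wild-type GAF regions overlapped 37 of the 71 gained regions (52.1%), 5 of the 35 lost ones (14.3%) and 160 of the 249 kept ones (64.3%). On the arms, 28.5% of gained, 30.2% of lost and 54.7% of kept Zelda regions overlapped a GAF region, and these shares were not tested. CAGGTA was near the midpoint of 4 of the gained (5.63%), 1 of the lost (2.86%) and 48 of the kept X regions (19.3%). On the arms the shares were 8.60%, 6.29% and 13.9%. In an intron of N, the mutant lists covered 1390 and 991 bp of a gained Zelda region, and all 4 GAF lists and both Pol II-Ser5P lists covered its whole 1393 bp. At a gained region near Imp, which encodes an RNA-binding protein, GAF covered the whole 1278 bp in all 4 lists. The widest gained region, chrX:6806-8957, lay near the tip of X.

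Lost Zelda regions on X overlapped HIRA in 22 of 35 cases (62.9%), compared with 34.6% on the arms. Of the kept Zelda regions, 43.8% overlapped HIRA on X and 52.1% on the arms, and of the gained ones 18.3% on both. Of the 3 widest, chrX:23537521-23538511 and chrX:23215544-23216315 lay in the last 0.542 Mb of X, and both HIRA lists covered each whole, the latter at the rRNA pseudogene 28SrRNA-Psi:CR45859. The other, chrX:22383688-22384393, measured 706 bp and lay between genes outside that end of X. The wild-type Zelda lists covered 662 and 385 bp of it, and neither HIRA list had a peak there. In this end of X, wild-type Zelda had 26 and 36 peaks and mutant Zelda 5 and 9. Without the 5 Mb next to the centromere, 17 lost Zelda regions were left on X. The part of repeated sequence, or of library depth, in this difference was not tested.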

How the data were processed

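Per the methods of the authors, ChIP-seq used 2 biological replicates per group. Of 40 labelled samples, the 14 with a peak list entered, and 26, among them inputs and the HIRA series, were not used here. The authors trimmed reads (Trimmomatic 0.39), mapped them to dm6 (Bowtie2 2.2.5), kept unique reads of quality 30 or above (SAMtools 1.18) and called peaks per replicate (MACS2 2.2.7.1, q 0.01). Whether inputs served as control is not given in the sources used here. The deposited lists hold 3 columns, chromosome, start and end, with no count or signal, so depth and its error are unknown. More binding and a deeper library cannot be told apart in such lists. Group and replicate came from the titles.

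Starts were shifted to count from 1. TSSs were taken from the Ensembl annotation, whose sequence lengths match dm6. The tests were exact permutation tests in Python 3 with numpy and pandas, adjusted over 5 measures by the Benjamini-Hochberg method at 0.05 and checked on simulated peaks. Members, lists and tests were chosen with earlier results of these data known. Named genes were those of the lists, the widest regions (2 per group, 3 gained and 3 lost per factor, 5 in all lists), the 5 genes with most regions and the 3 longest gaps. Alternatives changed peak width, arms, promoters, consensus, libraries and the call rule.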

Additional observations from a re-analysis of the deposited data

Results flagged for a closer look

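All 5 measures of X against 2L, 3L and 3R differed between groups beyond the replicates of a group. Peaks per Mb and peaks per promoter give the same test between groups, so they are not separate results. The adjusted p of the exact permutation test over 14 libraries was 0.000111 for peaks per Mb, 0.000111 for peaks per promoter, 0.000111 for the share of promoters with a peak, 0.000731 for the promoter share of peaks and 0.00243 for median width. For peaks per Mb, GAF in both genotypes had log2 ratios of -0.04 and 0.07, and the other 5 groups lay between -0.81 and -0.39. For the promoter share, Pol II-Ser5P stood highest at 8.60 points above the arms and HIRA lowest at -5.83 points. Without the 5 Mb next to the centromere of every arm, the HIRA libraries were at -1.88 and -2.01 points and those of mutant GAF, at -5.24 and -5.76 points, were lower.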

How the results depend on the processing

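Of the alternatives tried, 190 values kept their direction and side of the threshold, or their size, 22 counts moved by over 1.5 times, 13 values reversed and 1 passed the threshold. Some of the 190 could not change. The promoter settings do not enter peaks per Mb or peak width, and the replicate block repeats the main difference between genotypes. Peaks per Mb and peaks per promoter also share their test between groups in every setting. The tests of the difference between groups were run again for peaks of at least 500 bp, without the centromere ends, with narrower or protein-coding promoters and against each arm alone, and, for peaks per Mb, without peaks holding a GA run, and all passed. They were not run for consensus regions, the 5 wild-type groups or with a library left out. The cause of the changes below was not tested, except where stated. The tests of 2 libraries against 2, and the sign-flip test over 5 groups, could not pass the threshold in any setting. The mean log2 ratio of peaks per Mb became -0.60 (adjusted p = 0.0260, exact permutation test) without peaks holding a GA run, an alternative added after seeing the data. Such peaks were a larger share of GAF peaks on X than on the arms, so leaving them out lowers the GAF ratios by construction, and this pass is no support for a lower density of X. The mean difference in promoter share, close to 0, reversed to 0.56 points without 5 Mb next to the centromeres, 1.72 with protein-coding promoters, 1.39 against 3L, 1.46 against 3R and 0.79 over the 5 wild-type groups, and ranged from -0.30 to 0.18 when each library was left out in turn. The GAF difference in X peak number, a log2 of -0.01, became 0.019 for peaks of at least 500 bp and 0.0052 without the centromere ends, and ranged from -0.14 to 0.13 with libraries left out.

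Counting a peak in either replicate gave 223 gained and 190 lost GAF regions and 228 gained and 179 lost Zelda regions. For peaks of at least 500 bp, 30 GAF and 7 Zelda regions were lost, lists of equal length gave 35 lost GAF regions, and 17 lost Zelda regions remained without the centromere ends. Leaving out each library in turn gave 85 to 199 gained and 67 to 141 lost GAF regions, and 91 to 164 gained and 43 to 120 lost Zelda regions, because a genotype then rests on 1 list. Consensus regions of at least 500 bp peaks on X numbered 120 (dPCIF1), 138 (HIRA), 139 (Zelda in the wild type) and 213 (Zelda in the mutant).

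With the replicate number as a block, the X peak number differed by -0.01 for GAF (p = 1.00) and 0.20 for Zelda (p = 0.500), and the X to arms ratio by 0.11 (p = 0.500) and 0.16 (p = 0.500), all log2 values from exact permutation tests over 2 pairs whose smallest p is 0.500. The deviations of same-numbered libraries over 24 bins of X correlated at -0.08 for GAF and -0.24 for Zelda. Differences common to a whole library were removed before correlating, and libraries were compared only between genotypes of a factor. Whether same-numbered samples shared a preparation was therefore not tested. Peak lists without heights limit every count to places that passed a threshold.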
